A study of Homo sapiens with 4 samples.

Results

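The cytosolic ribosomal protein genes encode the protein parts of the large (60S) and small (40S) ribosomal subunits. They were taken as every gene whose single symbol in the array's annotation was RPL or RPS followed by a number and an optional A, X or L, or RPLP0 to RPLP2 or RPSA, with pseudogenes and the RPS6K kinases left out. Of 17687 named genes on the array, 50 met the rule, 30 of the large and 20 of the small subunit, and each had 1 probe set. RefSeq lists 82 protein-coding symbols of this form, and the other 32, among them RPLP0, RPLP2, RPL5 and RPSA, were not analysed here. No filter on low values was applied, so all 50 were tested.

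Every ribosome needs 1 copy of nearly each of these proteins, and cells coordinate the supply of the set with that of ribosomal RNA. The messenger RNAs of these genes typically begin with a C followed by a run of C and T (U in the RNA), the terminal oligopyrimidine or TOP tract, through which the kinase mTORC1 and the RNA-binding protein LARP1 control their translation and stability. Growing tumour cells such as A549 hold large amounts of these messenger RNAs.

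All 4 arrays were made from A549, a long-established line of human lung adenocarcinoma, in which the cells of every sample carried a short hairpin RNA against LDOC1, a small leucine zipper protein. In 2 samples (A549-shLDOC1-H2BK120R) the cells also made H2BK120R, a mutant histone H2B with arginine in place of the lysine that accepts monoubiquitin, and in 2 (A549-shLDOC1-V) they carried the vector, with all lines kept in puromycin. By the series' design text, loss of LDOC1 increased H2Bub1, the monoubiquitylated form of H2B, and the mutant reduced it, so the comparison addresses which transcripts differ when that mark is reduced in depleted cells. Cells with intact LDOC1 and cells with unmutated added H2B were not analysed here, and the labels do not say whether the lines are clones, which promoter drives the histone, or whether the replicates are separate cultures, so the p-values reflect only how far these arrays differ, which could be technical variation. Values are log2 levels, with array medians from 6.40 to 6.43 and correlations between arrays from 0.990 to 0.994, and probe sets differ in response, so a level does not rank the abundance of 1 gene against another and serves below only to describe markers and to group probe sets by brightness. The source label calls the samples a tumour, while the line is A549. Of the 9 epithelial and A549 markers looked up, KRT8, KRT18, CDH1, AKR1B10, AKR1C1, NQO1 and ALDH1A1 had mean levels from 10.92 to 17.71, while KRT19 was at 6.69 and EPCAM at 5.58. The leukocyte, fibroblast and endothelial markers measured ran from 3.04 (PECAM1) to 8.26 (COL1A2). Levels are taken as relative to the other signal on each array, a reading inferred from the near-equal array medians. In RNA from whole cultures fewer cells of a kind and less RNA per cell cannot be told apart.

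Most ribosomal protein genes were slightly lower in the cells with H2BK120R, and none passed the test. Of the 50 genes, 45 were lower and 5 higher, with a median difference (H2BK120R minus vector) of -0.25 on the log2 scale, or 15.8% lower. Over all 21448 probe sets the median difference was 0 and 49.4% were lower. Both H2BK120R arrays lay below both vector arrays for 32 members (64.0%), against 17.9% of all probe sets, and above both for 3, against 18.6%. After Benjamini-Hochberg adjustment in limma over all probe sets, 0 members and 0 probe sets in all (0.0%) had an adjusted p under 0.05, and the smallest value among the members was 0.569. At an unadjusted p under 0.05, 23 members were lower (46.0%, against 3.08% of all probe sets) and 0 were higher (against 3.62%). That count rests on how the spread is estimated and on single arrays. It was 2 without limma's mean-variance trend. Leaving out H2BK120R replicate 2 brought it to 0, leaving out H2BK120R replicate 1 to 9, and leaving out vector replicate 1 to 13. The median difference was -0.20 without H2BK120R replicate 2 and -0.18 without vector replicate 1. For 1 gene in groups of 2, the smallest two-sided p that an exact permutation test can reach is 0.333.

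**Figure D1:**
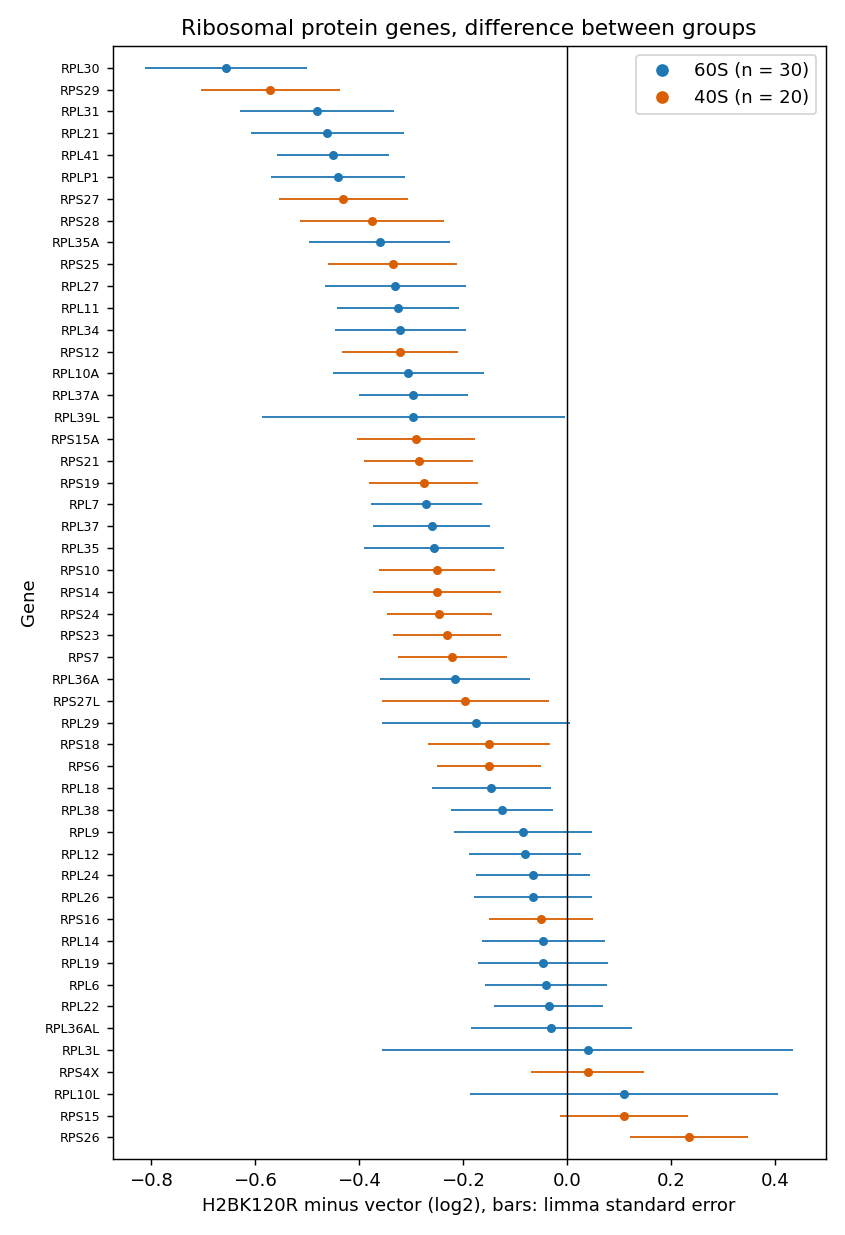
Difference between the groups (H2BK120R minus vector, log2, horizontal axis) for each of the 50 ribosomal protein genes, ordered from lowest to highest, with blue points for 60S and orange for 40S genes and bars of 1 limma standard error. The points run from -0.66 for RPL30 to 0.23 for RPS26, and 45 of the 50 lie to the left of 0.

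The differences were graded across the members. Of the 50 genes, 15 were lower by 0.3 or more and 7 of these by 0.4 or more, while 12 lay within 0.1 of 0. The standard errors ran from 0.10 to 0.40 with a median of 0.12, so the lowest members were several standard errors from 0 and those within 0.1 were not separable from it. The members spread less within a group than most probe sets: their median standard deviation was 0.12, against 0.21 over all probe sets. At levels from 14.78 to 16.36 the median limma standard error was 0.11 for the 17 members and 0.11 for 220 other genes. Limma draws these errors towards a trend with level, so they cannot show whether the genes' own spread was alike.

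Among large subunit genes, RPL30, which encodes a protein that binds kink-turn RNA, had the largest difference. Its level was 14.26 and 13.92 in the H2BK120R arrays and 14.95 and 14.54 in the vector arrays. The groups did not overlap, and the difference was -0.66 ± 0.16 (SE, n = 2 per group; limma adjusted p = 0.582), with a 95% confidence interval from -0.997 to -0.31. RPL31, whose protein lies near the exit of the peptide tunnel, was at 13.70 and 13.32 with the mutant and 14.11 and 13.87 with the vector. Its difference was -0.48 ± 0.15 (SE; limma adjusted p = 0.693), again without overlap, and -0.29 without H2BK120R replicate 2. RPL41, the gene of a very short and basic ribosomal peptide, was at 15.63 and 15.39 with H2BK120R and 15.98 and 15.94 with the vector. Its difference of -0.45 ± 0.11 (SE; limma adjusted p = 0.606) had an interval from -0.69 to -0.21.

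RPLP1 encodes an acidic protein of the stalk that engages translation factors, and it was the only P-protein gene of the stalk analysed here. It was at 15.29 and 14.96 with H2BK120R and 15.67 and 15.46 with the vector, a difference of -0.44 ± 0.13 (SE; limma adjusted p = 0.678) that was -0.28 without H2BK120R replicate 2. RPL11, which with RPL5 and a ribosomal RNA forms a particle that can bind the p53 regulator MDM2, was at 13.48 and 13.56 with H2BK120R and 13.91 and 13.78 with the vector. Both of these genes were lower in each mutant array than in each vector array, and the RPL11 difference was -0.33 ± 0.12 (SE; limma adjusted p = 0.722). RPL21, another large subunit gene, was at 11.52 and 11.33 against 11.96 and 11.81, a difference of -0.46 ± 0.15 (SE; limma adjusted p = 0.693). Its value is uncertain as to its source. The number in its probe set's name, TC1000012032.hg.1, reads as chromosome 10, RefSeq places RPL21 on chromosome 13, and such a mismatch occurred for 7 of 17682 genes and for 1 member. RPL21 also has 137 pseudogenes in RefSeq, the most of any member.

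Among small subunit genes, RPS29, which encodes a zinc-binding protein of the subunit's head, differed most. It was at 14.84 and 14.54 in the H2BK120R arrays and 15.40 and 15.12 in the vector arrays. The groups were separate, with a difference of -0.57 ± 0.13 (SE; limma adjusted p = 0.569) and an interval from -0.86 to -0.28. RPS27, the gene of a zinc finger protein of the 40S subunit, was at 14.67 and 14.47 with H2BK120R and 15.13 and 14.87 with the vector, a difference of -0.43 ± 0.12 (SE; limma adjusted p = 0.678). RPS12, which encodes a protein of the beak of the head, was at 13.76 and 13.72 against 14.04 and 14.08, a difference of -0.32 ± 0.11 (SE; limma adjusted p = 0.722).

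The 5 members that were not lower were 3 small subunit genes and 2 paralogues of large subunit genes. RPS26, whose protein lines the channel by which messenger RNA leaves the small subunit, was at 13.76 and 13.78 with H2BK120R and 13.54 and 13.53 with the vector. Both mutant arrays were above both vector arrays, the opposite of most members, and the difference was 0.23 ± 0.11 (SE; limma adjusted p = 0.746). RPS15, of the head near the decoding site, differed by 0.11 ± 0.12, with vector replicate 2 (13.86) between the mutant arrays (13.82 and 13.90). RPS4X, the X-linked gene of a small subunit protein, was at 14.32 and 14.26 with the mutant and 14.25 and 14.25 with the vector. Its difference was 0.04 ± 0.11, and -0.01 after quantile normalization. RPL10L and RPL3L, paralogues known from testis and from muscle, differed by 0.11 ± 0.30 and 0.04 ± 0.40. RPL3L varied more within the groups than between them, at 5.98 and 4.96 with the mutant and 5.79 and 5.07 with the vector. None of the 5 differences passed.

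The large and small subunit genes did not separate. The median difference was -0.24 over the 30 large subunit genes, of which 28 were lower, and -0.25 over the 20 small subunit genes, of which 17 were lower. Both mutant arrays lay below both vector arrays for 17 large (56.7%) and 15 small subunit genes (75%), against 17.9% of all probe sets. Relative to each gene's mean over the 4 arrays, the median deviation of large subunit genes was -0.09 and -0.12 in the H2BK120R arrays and 0.11 and 0.10 in the vector arrays. For small subunit genes it was -0.07 and -0.18 with H2BK120R and 0.18 and 0.05 with the vector. The median of the small subunit genes thus moved more between replicates, with a standard deviation of 0.08, against 0.02 for that of the large subunit genes. For single genes the median limma standard error was 0.11 in the small and 0.13 in the large subunit. Limma draws these errors towards a trend with level, and the median levels were 14.70 and 13.70. They therefore do not compare how single genes of the 2 subunits varied between replicates. The large minus the small subunit median was -0.02 and 0.06 in the mutant arrays and -0.07 and 0.05 in the vector arrays, so the groups overlapped. The difference between the 2 subunits' medians was 0.01, and it was -0.01 when the dimmest 25% or 50% of probe sets were left out, which removed RPL10L and, in the latter case, RPL3L. Since the genes were chosen with results known, this contrast was given no test.

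**Figure D2:**
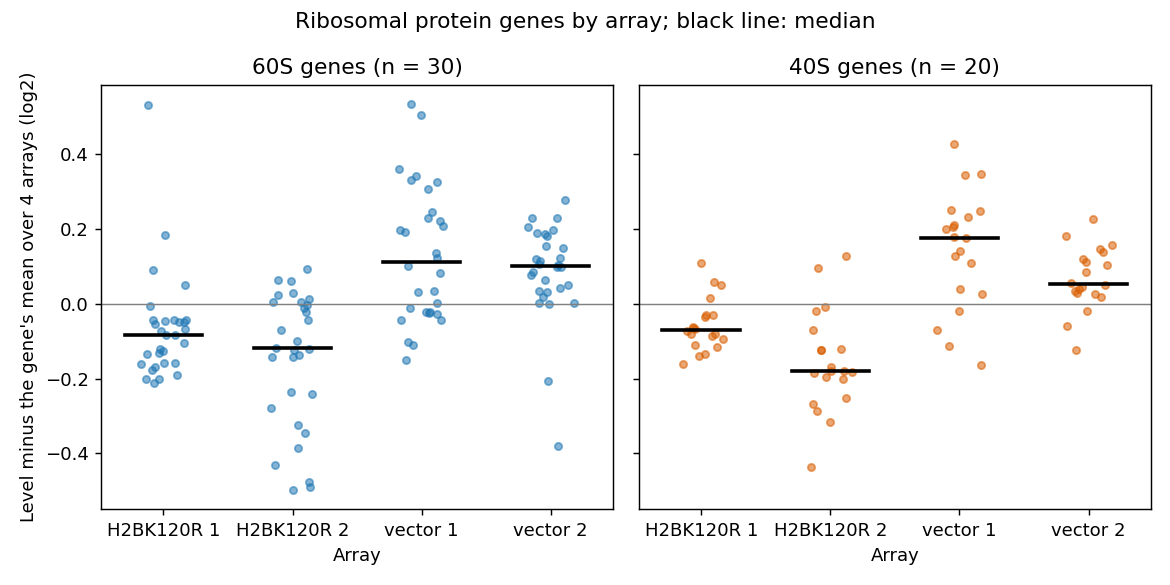
Level of each ribosomal protein gene in each array minus that gene's mean over the 4 arrays (log2, vertical axis), for 30 large subunit genes (left) and 20 small subunit genes (right), with 1 point per gene and a black line at the median. The medians are below 0 in both H2BK120R arrays and above 0 in both vector arrays, between -0.18 and 0.18.

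Set against each other singly, every mutant array was lower than every vector array in the median of the members. The median ran from -0.17 (H2BK120R replicate 1 against vector replicate 2, 44 of 50 genes lower) to -0.31 (H2BK120R replicate 2 against vector replicate 1, 35 genes lower). Between the 2 H2BK120R arrays the median was 0.06, with 28 members higher in replicate 1 and 22 lower. Between the vector arrays it was 0.06, with 27 higher in replicate 1 and 21 lower. The median over all probe sets was between -0.01 and 0.01 in each of these pairs.

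In the 5 pairs of paralogues with both genes measured, the genes of a pair had unequal differences. RPS27 and RPS27L, the latter a p53 target, differed by -0.43 and by -0.19 ± 0.16 (SE). RPS27L was at 11.44 and 11.13 with H2BK120R and 11.56 and 11.40 with the vector, so its groups overlapped where those of RPS27 did not. With single arrays left out the RPS27L difference was -0.04 (without H2BK120R replicate 2), -0.12 (without vector replicate 1) and -0.35 (without H2BK120R replicate 1). RPL36A differed by -0.21 ± 0.14, or -0.13 without vector replicate 1, and its relative RPL36AL by -0.03 ± 0.15. RPL7 was at 14.92 and 14.99 with the mutant and 15.31 and 15.14 with the vector (-0.27 ± 0.11), while RPL7L1 differed by 0.03 ± 0.14 and by -0.01 after quantile normalization.

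In the other two pairs the paralogue was the lower of the genes. RPL22 encodes a large subunit protein that binds RNA outside the ribosome as well, and it differed by -0.03 ± 0.10. RPL22L1, its relative, was at 10.63 and 10.17 with H2BK120R and 10.96 and 11.05 with the vector, a difference of -0.60 ± 0.18 (SE; limma adjusted p = 0.690) with no overlap, and -0.38 without H2BK120R replicate 2. RPL26 differed by -0.07 ± 0.11 and RPL26L1 by -0.38 ± 0.19. RPL22L1, RPL26L1 and RPL7L1 fall outside the symbol rule and are not among the 50. The exact two-sided permutation p for the difference between the genes of a pair was 0.333, the smallest possible, for all pairs but RPL36A and RPL36AL, where it was 1. RPL39L, whose partner RPL39 was not analysed here, was at 8.64 and 7.98 with the mutant and 8.96 and 8.25 with the vector. Its difference of -0.29 ± 0.29 was no larger than the gap between replicates.

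**Figure D3:**
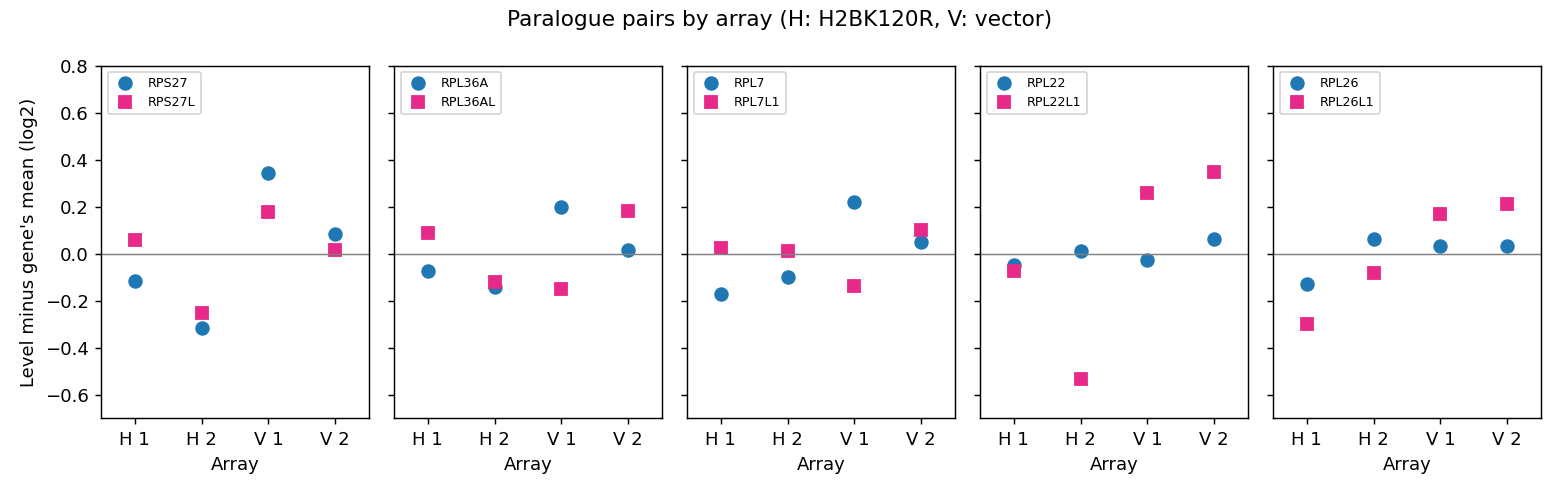
Level minus the gene's own mean over the 4 arrays (log2, vertical axis) for 5 paralogue pairs, with blue circles for the core gene, pink squares for its paralogue, H for H2BK120R and V for vector arrays. RPS27 and RPL7 are below 0 in both mutant arrays, while in the RPL22 and RPL26 pairs it is the paralogue that is below 0 in both mutant arrays and above 0 in both vector arrays.

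The starts of these genes show what the members share in sequence. Windows of 30 bases, 15 before and 15 from the annotated start, are given for genes with the lowest values, genes near 0 and genes that were not lower, from RefSeq on GRCh38.p14 in the direction of transcription. Capitals mark the tract, defined as a C at the start followed by at least 4 C or T.
RPL31 (chr2:101002274-101002303, plus strand): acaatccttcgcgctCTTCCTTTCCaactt
RPLP1 (chr15:69452803-69452832, plus strand): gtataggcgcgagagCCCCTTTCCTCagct
RPL41 (chr12:56116618-56116647, plus strand): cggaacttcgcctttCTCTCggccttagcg
RPS27 (chr1:153990747-153990776, plus strand): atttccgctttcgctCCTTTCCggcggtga
RPS12 (chr6:132814554-132814583, plus strand): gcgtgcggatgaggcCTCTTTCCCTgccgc
RPL26 (chr17:8383179-8383208, minus strand): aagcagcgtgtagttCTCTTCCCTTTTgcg
RPL22 (chr1:6199581-6199610, minus strand): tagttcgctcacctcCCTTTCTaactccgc
RPS29 (chr14:49598696-49598725, minus strand): ccccgagcgcgcagctggcagcggtggttg
RPS27L (chr15:63157463-63157492, minus strand): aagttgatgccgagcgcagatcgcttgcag
RPS4X (chrX:72277234-72277263, minus strand): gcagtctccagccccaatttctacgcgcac
RPS15 (chr19:1438381-1438410, plus strand): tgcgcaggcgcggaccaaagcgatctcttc
RPS26 (chr12:56041903-56041932, plus strand): gagacacataacctcgattttcttccgcca

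Of the 44 members with an entry in the promoter table, 30 (68.2%) had such a tract at an annotated start, against 5.14% of all 27305 genes in that table. The 30 genes with the tract were all lower with H2BK120R, with differences from -0.48 to -0.04 and a median of -0.25. Of the 14 without it, 10 were lower and 4 higher, with a median of -0.07, and the 4 were RPS26, RPS15, RPS4X and RPL10L. RPL10L was dim, at a mean level of 4, and the median level was 13.39 without the tract and 14.60 with it. RPS29 and RPS28 (-0.38 ± 0.14), with no tract at the annotated start, were among the lowest members, and RPL22 and RPL26 had a tract and lay near 0, so the tract did not sort the genes cleanly. Where the tract could begin within 5 bases of the start, it was present in 35 of the 44 members (79.5%) and in 25.2% of all genes, and the medians were -0.25 with it and -0.04 for the other 9. Annotated starts are those of RefSeq and were not mapped in these cells. This grouping was chosen after the values were seen and was given no test. RPL30, RPL7, RPL37, RPS15A, RPL39L and RPL3L had no entry.

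Other genes that begin with such a tract were not lower on balance. Of other named genes, 838 had a tract at the start, 415 of them lower and 417 higher, with a median of 0. They were not matched to the members in level, with a median level of 8.15 against 14.60 for the 30 members with the tract. A list of 19 other known TOP genes had 13 measured, with a median of -0.01, and their differences ran from -0.05 to 0.14. EEF1A1, the main elongation factor that delivers transfer RNA, was at 17.72 and 17.81 in the arrays of each group alike. NPM1, a nucleolar chaperone, differed by -0.03 ± 0.15, and HNRNPA1, an RNA-binding splicing factor, by 0.12 ± 0.09. In none of the 13 were both mutant arrays below both vector arrays, against 17.9% of all probe sets. In 1, HNRNPA1, both were above, against 18.6%. The ETS-factor motif core CCGGAA, searched on both strands of the 300 bases around the start, occurred in 26 of the 44 members (59.1%) and 20.1% of all genes, and members with and without it had medians of -0.18 and -0.25.

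**Figure D4:**
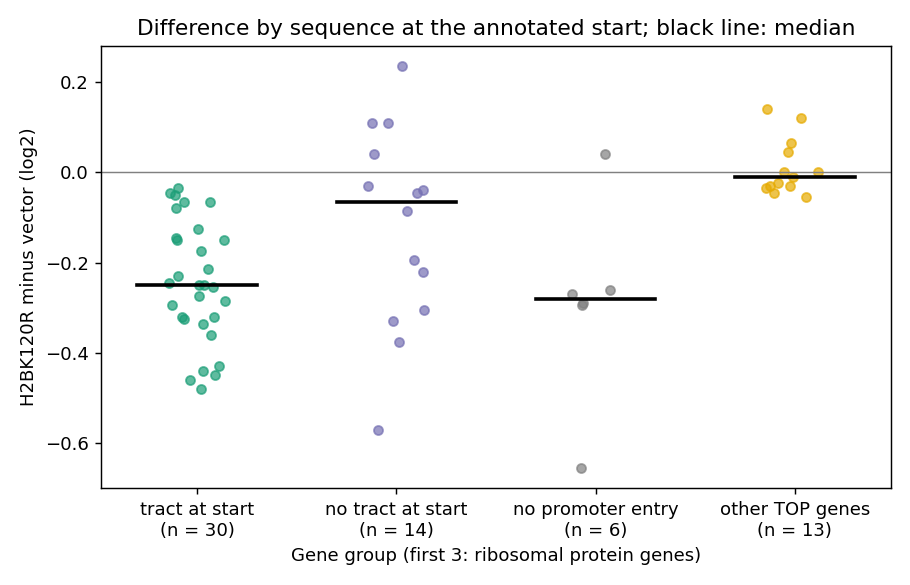
Difference between the groups (H2BK120R minus vector, log2) for ribosomal protein genes with a C and T tract at the annotated start (30), without it (14) and with no promoter entry (6), and for 13 other TOP genes, with 1 point per gene and a black line at the median. All 30 genes with the tract lie below 0, while the other TOP genes lie between -0.05 and 0.14.

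The members were spread over 19 chromosomes, and neighbours differed. RPS26 and RPL41, whose starts lie within 100 kb of each other on chromosome 12, differed by 0.23 and -0.45. RPS29 and RPL36AL, also within 100 kb on chromosome 14, differed by -0.57 and -0.03. Their genes are short, with a median RefSeq length of 5023 bases against 26001 for other named genes. Across the 50 members the difference correlated weakly with log2 gene length (Pearson r = -0.13, Spearman rho = 0.00), with level (-0.25 and -0.09) and with the log2 number of RefSeq pseudogenes plus 1 (-0.23 and -0.16). These genes share arrays and are not independent. Pseudogene copies ranged from 0 for 5 members to 137, so probe sets may also read such copies. The 25 members above the median number of pseudogenes and the 25 at or below it had medians of -0.24 and -0.25.

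Other genes of like level were slightly higher on balance. Split into 3 groups by level, the members had medians of -0.21, -0.25 and -0.24 from the dimmest to the brightest group. Other named genes within the same 3 ranges had medians of 0.01, 0.06 and 0.09. In the brightest range, from 14.78 to 16.36, all 17 members were lower, against 62 of 220 other genes (28.2%). Short genes outside the ribosome leaned lower. Of other genes with lengths from 772 to 3924 bases, 55.4% were lower, with a median of -0.04, where the 17 members in that range had a median of -0.28. Of other genes, 1631 lay in both the level and the length range of the members other than RPL3L, RPL10L and RPL39L. Of these 51.3% were lower, and the median was -0.01. The groups were separate with the mutant lower in 374 of them (22.9%, against 68.1% of those 47 members) and with the mutant higher in 260. At an unadjusted limma p under 0.05, 91 (5.58%, against 48.9%) were lower and 79 higher. They shared only the ranges and were not matched to the members, with a median level of 11.65 against 14.42.

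**Figure D5:**
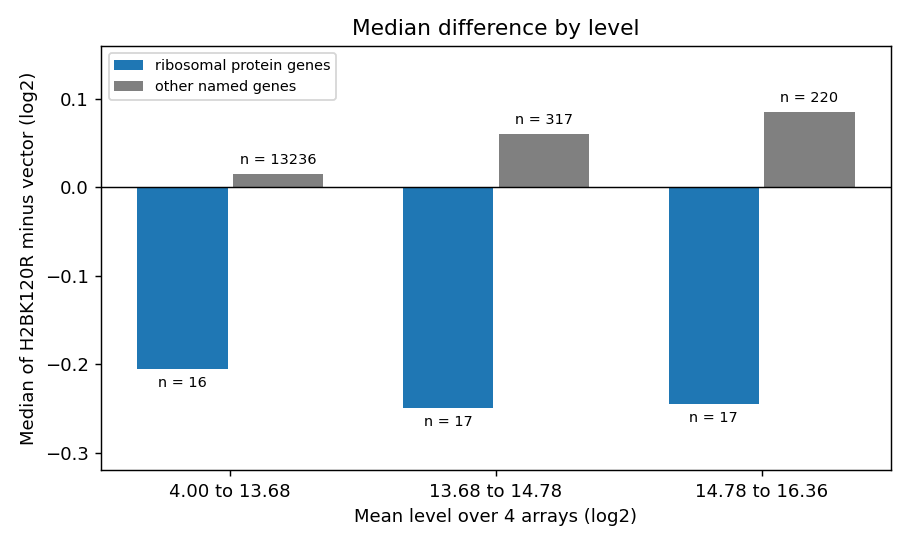
Median difference between the groups (H2BK120R minus vector, log2, vertical axis) for ribosomal protein genes (blue) and other named genes (grey) in 3 ranges of mean level over the 4 arrays, with the number of genes at each bar. The blue bars lie between -0.21 and -0.25 and the grey bars between 0.01 and 0.09.

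Genes that build or regulate the ribosome were described by list. Of 40 ribosome assembly factors 34 were measured, 22 lower and 12 higher, with a median of -0.10. Both mutant arrays lay below both vector arrays for 12 of them (35.3%, against 17.9% of all probe sets) and above for 1 (against 18.6%). EIF6, which keeps the large subunit from joining the small one too early, was at 12.25 and 12.26 with H2BK120R and 12.86 and 12.64 with the vector, a difference of -0.49 ± 0.14 (SE; limma adjusted p = 0.678). NHP2 and GAR1, proteins of the particles that pseudouridylate ribosomal RNA, differed by -0.45 ± 0.16 and -0.37 ± 0.14, and FBL, the ribosomal RNA methyltransferase fibrillarin, by -0.28 ± 0.11. WDR12, which acts in maturation of the large subunit, differed by 0.54 ± 0.22 in the other direction.

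The 14 measured genes for transcription of ribosomal RNA had 8 lower and 6 higher and a median of -0.04. Among 14 measured mTORC1 and TOP regulators, 9 were lower and 5 higher, with a median of -0.03. LARP1, the protein that binds the TOP tract, was at 15.19 and 15.06 with H2BK120R and 15.03 and 14.78 with the vector (0.22 ± 0.12). On a list drawn up around RPL5, RPL11 and p53, MDM4 differed by 0.39 ± 0.13 and MDM2 by 0.24 ± 0.20. CDKN1A, which encodes p21, differed by -0.14 ± 0.16, and ZNF622, also on that list, by -0.39 ± 0.22. FAU, which encodes a small subunit protein fused to a ubiquitin-like one, was at 10.37 and 10.86 against 10.89 and 10.77 (-0.21 ± 0.19). The ribosomal genes mutated in Diamond-Blackfan anaemia, an inherited failure of red cell production, had 16 of 20 measured, all of them among the 50 members. Of these, 15 were lower and 1, RPS26, higher, with a median of -0.28. Over all 50 members 45 were lower, with a median of -0.25, so the list is a part of that result. None of the genes on these lists passed adjustment over all probe sets.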

How the data were processed

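Total RNA of 4 A549 samples was hybridized to whole-transcript oligonucleotide arrays, per the labels' protocols. The deposited values are log2 levels, 1 per probe set, and were used without further scaling. No source states the log base, which was taken as 2 because values ran from 1.56 to 19.15. That the authors normalized between arrays is inferred from the near-equal array medians. The submitters' processing notes name MAS5 without a version, and for background correction, probe summary and detection calls the method was not given in the sources used here. Genes were named through the platform annotation, in which 17709 of 21448 probe sets had 1 symbol, and all 50 member symbols matched RefSeq (GRCh38.p14).

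Groups were compared with limma 3.58.1 under R 4.3.3 (lmFit, then eBayes with its trend option), two-sided, with 2 residual and 8.95 prior degrees of freedom. The p-values were adjusted by Benjamini-Hochberg across the 21448 probe sets. The procedure was tested on simulated data with added shifts larger than any member's difference, so not at the size seen here. For arrays, their number limits the precision. Figures used Python 3.11.15 and matplotlib 3.10.9. Named genes were the 8 members with the smallest p among those lower, all members not lower, paralogue pairs, stalk, RPL5 and RPL11, and ubiquitin fusion genes, and up to 4 of each related list. From each list these were to be the genes with the smallest p, and EEF1A1 and NPM1 were named outside that order. RPS28 and WDR12 were added after their values were seen. The members and lists were chosen with earlier results of these data known. Of 11 lists 1, of snoRNA host genes, matched no gene symbol in the annotation used here. Binning by protein length was planned, and gene length was used instead. As alternatives, arrays were quantile normalized or set to equal medians, the 25% or 50% of probe sets with the lowest levels were dropped, the variance trend was omitted or robust estimation used, a replicate block was added, and single arrays were removed.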

Additional observations from a re-analysis of the deposited data

How the results depend on the processing

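In limma, the number of probe sets with an adjusted p under 0.05 was 0 under each alternative, and at an unadjusted p the members passed as follows. The number of ribosomal protein genes lower at an unadjusted p under 0.05 was 23, and 2 without the variance trend, where the cause was not tested. With 1 array left out it ranged from 0 (without H2BK120R replicate 2) to 22, and these fits take the lone array's spread from the other group. The median over the members stayed between -0.28 and -0.18 in all fits. For large subunit genes it was -0.27 after quantile normalization, -0.26 and -0.26 with the dimmest 25% or 50% left out, which drop 1 or 2 members, and from -0.23 to -0.20 with 1 array left out. The large minus the small subunit median reversed to -0.0075 and -0.01 without the dimmest 25% and 50%, and ranged from -0.0225 to 0.09 with 1 array left out.

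Of the 25 members, paralogues and FAU named by the rule none passed adjustment under any alternative, and 8 changed sign under at least 1. RPS4X was at -0.0069 and RPL7L1 at -0.01 after quantile normalization. With 1 array left out the ranges were -0.47 to 0.55 for RPL3L, -0.46 to 0.03 for FAU, -0.16 to 0.03 for RPL26, -0.20 to 0.13 for RPL36AL, -0.65 to 0.06 for RPL39L, -0.085 to 0.15 for RPL7L1 and -0.08 to 0.01 for RPL22. Without a sign change, 1 array also moved RPS15 (0 without vector replicate 1 to 0.22 without vector replicate 2) and RPL10L (0.06 without vector replicate 1). Over all probe sets, the deviations of same-numbered arrays correlated at 0.14, and with 2 pairs the samples share only a number. With the replicate block 26 members were lower at an unadjusted p under 0.05 and the median was -0.25. No member had several probe sets, so averaging them, and a pseudocount for linear values, did not apply.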
